A study of Mus musculus with 12 samples.

Results

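Cytochrome P450 (Cyp) enzymes are heme proteins that insert oxygen into lipids and foreign compounds. In the liver, some of them make cholesterol and turn it into bile acids, others clear drugs and other foreign compounds or hydroxylate fatty acids, and close copies of several families lie side by side in the genome. Mice that lack Mdr2, the transporter that moves phospholipid into bile, live with bile acids that are not buffered by phospholipid, with chronic liver inflammation and, later, with liver tumors. The data analysed here give the DNA dose of the Cyp genes in such tumors, by array-based comparative genomic hybridization (aCGH), in which tumor DNA and reference DNA compete for the same probes. All Cyp genes on the autosomes were taken by name, by a rule that used no measured value. The array named 56 of them, with 101 probes, among 19944 named autosomal genes. The RefSeq gene table of mouse build GRCm38.p6 holds 99 protein-coding Cyp genes, and 56 of these were on the array, 55 under the same symbol and 1, Cyp2c44, under an older one.

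All mice were Mdr2-KO/FVB and were kept on a normal diet. The 6 post-PHx tumors (PHx1M to PHx6F, 4 from males and 2 from females) came from 9-month-old mice that had lost 70% of the liver by partial hepatectomy (PHx) at the age of 3 or 6 months, and the labels do not tell which tumor had which age at operation. The 6 spontaneous tumors (Spon1M to Spon6F) came from mice without surgery (2 males at the age of 14 months, 4 females at 13 months), so PHx and age differ together between the groups. Each tumor was set against liver tissue without tumor, taken from the same mouse at a distance, which is itself Mdr2-deficient and, in the post-PHx group, regenerated. Values are log2 ratios of tumor over non-tumor liver, so that 0 is an equal dose and 1 is a doubled signal, and a low share of tumor cells and a small copy change cannot be told apart from these ratios, although the study describes the tumors as made up mostly of tumor cells on sections. Tumor DNA was always labelled with Cy5 and non-tumor DNA with Cy3.

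The 12 arrays lay on 3 slides, and only slide 2 held both groups (PHx5M, PHx6F, Spon5F and Spon6F). The median signal of the Cyp probes over background was 7.38 to 17.4 in the Cy3 channel of the post-PHx arrays and 14.3 to 25.5 in that of the spontaneous arrays, and 97 to 100 of the 101 Cyp probes were well above background in both channels. Neighbouring probes differed with a spread (log2) of 0.155 to 0.187 on the post-PHx arrays and of 0.147 to 0.265 on the spontaneous ones. Across 19123 genes, the deviations of PHx6F, Spon5F and Spon6F from the mean of all tumors correlated with each other (r = 0.39 to 0.52), and the next pair had r = 0.24; the genes are not independent replicates, and these 3 tumors share slide 2 and female sex.

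By joining Cyp genes under 1 Mb apart, 31 loci on 14 chromosomes were obtained. Of these, 8 were clusters, with 33 genes in all, and 23 held 1 gene. The clusters were Cyp2j (4 genes) and Cyp4a/4b/4x (4 genes) on chromosome 4, Cyp3a (2) on chromosome 5, Cyp2b/2f/2g/2s (5) on chromosome 7, Cyp1a/11a (3) on chromosome 9, Cyp2d (4) on chromosome 15, Cyp4f (4) on chromosome 17 and Cyp2c (7) on chromosome 19. A gene was measured by few probes, 19 genes by 1 probe, 32 by 2 and 5 by 3 or more. The 6 probes of Cyp2c54 spread from 40059133 to 40150334 on chromosome 19, amid close copies. Values of single Cyp2c, Cyp2d, Cyp3a and Cyp4a genes are uncertain, because a probe could bind other members of its family, which was not tested.

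Promoters were printed for the Cyp genes whose DNA was gained in the most tumors or at the greatest height. Cyp51, the lanosterol demethylase of cholesterol synthesis, lies near the start of chromosome 5, and Cyp2s1 and Cyp2b10 are the outermost genes on the proximal side of the chromosome 7 cluster. Cyp2b10 is the classical target of the nuclear receptor CAR (Nr1i3). The 300 bases are those from 250 before to 50 after the gene start in RefSeq build GRCm38.p6, a later build than that of the probe positions, with their strand given in parentheses, and 5 of 9 genes searched were in the table. Capitals mark CCAAT or GGGCGG on either strand.
Cyp51, chr5:4104648-4104947 (-): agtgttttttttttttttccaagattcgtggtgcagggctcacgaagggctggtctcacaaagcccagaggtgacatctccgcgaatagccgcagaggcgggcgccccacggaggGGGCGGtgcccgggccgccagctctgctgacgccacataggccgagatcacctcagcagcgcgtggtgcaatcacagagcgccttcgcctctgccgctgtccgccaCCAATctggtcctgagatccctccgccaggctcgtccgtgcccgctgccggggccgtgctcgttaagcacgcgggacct
Cyp2s1, chr7:25816476-25816775 (-): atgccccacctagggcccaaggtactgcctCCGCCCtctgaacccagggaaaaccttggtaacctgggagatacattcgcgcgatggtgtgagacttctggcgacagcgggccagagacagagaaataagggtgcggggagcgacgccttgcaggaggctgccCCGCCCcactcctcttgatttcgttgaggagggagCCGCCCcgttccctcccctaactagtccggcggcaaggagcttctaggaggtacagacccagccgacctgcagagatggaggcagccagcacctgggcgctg
Cyp2b10, chr7:25897408-25897707 (+): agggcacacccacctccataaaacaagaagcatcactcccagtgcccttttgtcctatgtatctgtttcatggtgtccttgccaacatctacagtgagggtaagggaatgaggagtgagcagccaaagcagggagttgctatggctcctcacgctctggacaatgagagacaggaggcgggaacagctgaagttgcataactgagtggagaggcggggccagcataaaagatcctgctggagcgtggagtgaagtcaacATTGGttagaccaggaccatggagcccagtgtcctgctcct
The Cyp51 promoter held 1 CCAAT and 1 GGGCGG, that of Cyp2s1 held 3 GGGCGG, and that of Cyp2b10 held 1 CCAAT, with no overlap between motifs. Among all 32851 promoters of the table, 37.4% held CCAAT and 35.7% held GGGCGG, and 13.6% held TATAAA, which none of the 3 had. The GC content was 64.7% for Cyp51, 63% for Cyp2s1 and 53% for Cyp2b10.

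To find gains and losses in single tumors, intervals were scored with each probe weighted by its error, and those with a score of 6 or more, 2 or more probes and a mean log2 ratio past 0.4 in either direction, the filter of the study, were kept as regions. A gene counted as inside a region when the midpoint of its probes lay in it. In at least 1 post-PHx tumor, 9 of 56 Cyp genes (16.1%) lay in an amplified region, against 9.11% of all genes. Of the post-PHx tumors, 5 of 6 had such a gene, and PHx5M had no called region. No Cyp gene was deleted in a post-PHx tumor, as with all other genes (0%). In at least 1 spontaneous tumor, 6 Cyp genes (10.7%) were amplified, against 8.41% of all genes, and 12 (21.4%) were deleted, against 10.5% of all genes. The counts are not independent between neighbours, since 5 of the 9 genes amplified after PHx form the chromosome 7 cluster in PHx3M alone, and 10 of the 12 deleted genes lie on chromosome 19 in Spon2M alone. Pieces inside larger intervals were also searched, a choice made after seeing the data. Without that search, 1 Cyp gene was amplified in the spontaneous tumors (1.79%, against 6.30% of all genes) and 2 were deleted (3.57%, against 7.48%). These Cyp shares lay below those of all genes. The 9 of the post-PHx tumors stayed 9 (16.1%, against 9.46%). Without PHx3M the amplified Cyp genes of the post-PHx tumors were 4, and without Spon2M the deleted ones of the spontaneous tumors were 2. The shares of all genes with these tumors left out were not computed.

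**Figure D1:**
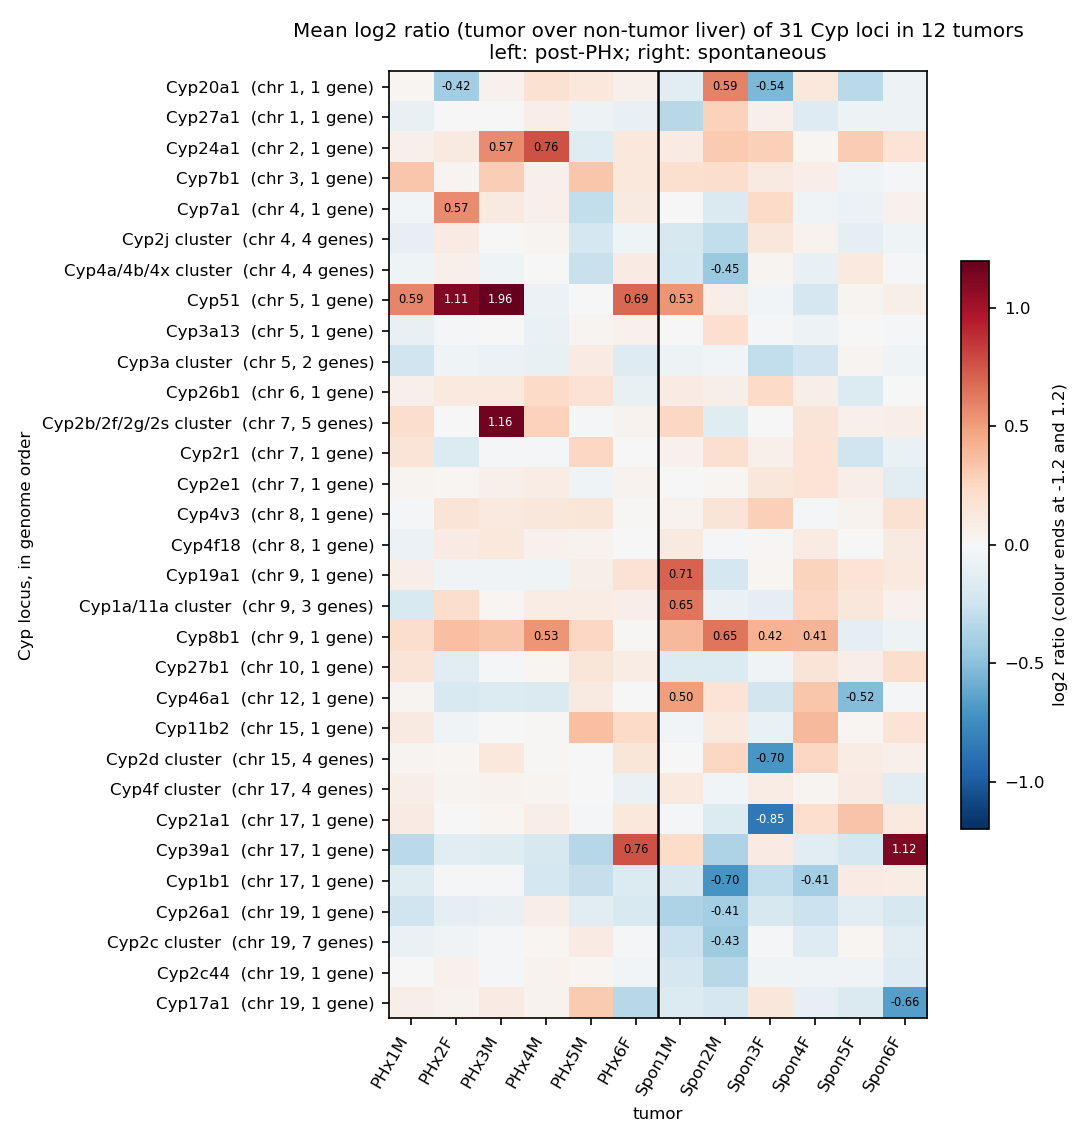
Mean log2 ratio of the 31 Cyp loci (rows, in genome order) in the 6 post-PHx and 6 spontaneous tumors (columns), with values of at least 0.4 in size printed. Cyp51 is high in PHx1M, PHx2F, PHx3M and PHx6F and in Spon1M, and the loci of chromosome 19 are low in Spon2M.

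Cyp51 was the Cyp gene gained in the most tumors. Its 3 probes (chromosome 5, 4088556 to 4106021, build NCBI36/mm8) gave mean log2 ratios of 1.96 in PHx3M, 1.11 in PHx2F, 0.69 in PHx6F and 0.59 in PHx1M, and of -0.00 in PHx5M and -0.07 in PHx4M. In the spontaneous tumors the values were 0.53 in Spon1M, 0.08 in Spon2M, -0.03 in Spon3F, -0.20 in Spon4F, 0.03 in Spon5F and 0.07 in Spon6F. Thus 4 post-PHx tumors stood clearly above 0, PHx4M and PHx5M did not, and Spon1M was the only spontaneous tumor above 0.4. The 3 probes agreed closely in PHx3M, where they ranged from 1.88 to 2.03, a 3.88-fold signal on average. The gene lay in a called region in 4 post-PHx tumors and, in the main setting, in 0 spontaneous ones. These 4 regions began at 3285647, the first probe of the chromosome, and ended at 9741756 in PHx1M (94 probes, mean log2 ratio 0.42) and in PHx3M (85 probes, 1.63), at 7184333 in PHx2F (50 probes, 0.92) and at 5793960 in PHx6F (50 probes, 0.67). They shared 2.51 Mb. In Spon1M the other probes within 1 Mb of the gene averaged 0.40, but the region called there at a filter of 0.25 had a mean of 0.30, under the filter of 0.4. With equal probe weights or after normexp, Spon1M also had a called region there, with means of 0.42 and 0.57. The post-PHx mean was 0.71 ± 0.75 (SD, n = 6) and the spontaneous mean 0.08 ± 0.24 (SD, n = 6). The difference of 0.63 (95% interval 0.02 to 1.25) did not pass the threshold over all genes (limma, adjusted p = 0.985). It was 0.29 with slide as a block, a value that rests on slide 2 alone, the only slide with both groups.

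The chromosome 7 cluster rose as a block in PHx3M. It holds Cyp2s1, expressed mostly outside the liver, Cyp2b10, the skin enzyme Cyp2b19, the olfactory enzyme Cyp2g1 and Cyp2f2, known for activating naphthalene in the airway, between 25511515 and 26838095. In PHx3M its 11 probes averaged 1.16, and the genes were at 1.26 (Cyp2s1), 1.31 (Cyp2b10), 1.07 (Cyp2b19), 1.25 (Cyp2g1) and 0.96 (Cyp2f2). The called region ran from 17227678 to 31013605 with 424 probes, 260 genes and a mean log2 ratio of 1.05. The cluster means of the other post-PHx tumors were 0.21 in PHx1M, -0.01 in PHx2F, 0.28 in PHx4M, -0.02 in PHx5M and 0.05 in PHx6F, and those of the spontaneous tumors ranged from -0.14 in Spon2M to 0.25 in Spon1M. PHx3M was far above the other 11 tumors. In PHx1M and PHx4M the other probes within 1 Mb were at 0.24 and 0.28, close to the cluster itself, and at a filter of 0.25 in place of 0.4 both tumors had amplified regions that held all 5 genes, with means of 0.32 and 0.34. The order of the 5 genes was not the same in each tumor, and in PHx1M Cyp2b10 was at 0.37 while Cyp2f2 was at -0.11.

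**Figure D2:**
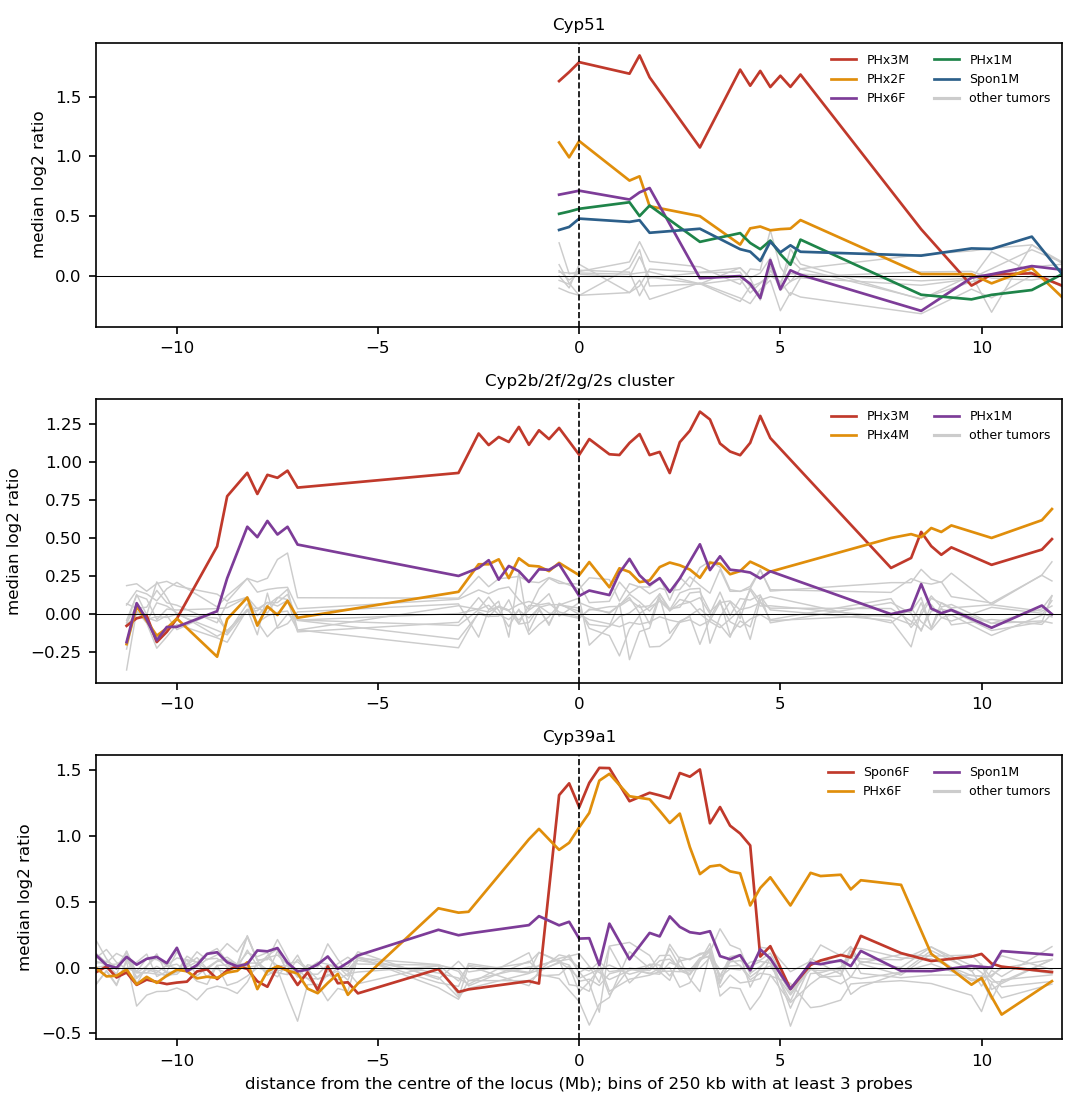
Median log2 ratio (vertical axis) in bins of 250 kb with at least 3 probes, by distance in Mb from the centre of Cyp51, of the chromosome 7 cluster and of Cyp39a1 (dashed line), with 1 line per tumor that also spans bins with fewer probes. The gains reach well beyond the Cyp genes, and PHx3M is highest at Cyp51 and at the cluster.

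Several other genes of bile acid and sterol metabolism lay in called gains. Cyp7a1, the rate-limiting enzyme of bile acid synthesis (2 probes, chromosome 4, 6199736 to 6202673), was at 0.57 in PHx2F. The other post-PHx tumors were between -0.29 in PHx5M and 0.11 in PHx6F, and the spontaneous ones between -0.17 in Spon2M and 0.23 in Spon3F. In PHx2F it lay at the less gained side of a region from 4649473 to 16186673 (116 probes, mean log2 ratio 1.22), and the probes within 1 Mb averaged 0.53, like the gene. Cyp39a1, an oxysterol hydroxylase (2 probes, chromosome 17, 43188544 to 43206732), was gained in 1 tumor of each group. It was at 0.76 in PHx6F and at 1.12 in Spon6F, whereas the other post-PHx tumors were between -0.34 and -0.13 and the other spontaneous ones between -0.37 and 0.22. The regions ran from 40416263 to 51350221 in PHx6F (254 probes, mean log2 ratio 0.83) and from 42512511 to 47553980 in Spon6F (168 probes, 1.25), so the second lay within the first. PHx6F and Spon6F are the pair of tumors with the highest correlation given above, and the part of this in the shared gain was not tested.

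Cyp46a1, a cholesterol hydroxylase best known from brain (2 probes, chromosome 12, 108783591 to 108790874), moved in opposite directions among the spontaneous tumors. It was at 0.50 in Spon1M, 0.16 in Spon2M, -0.22 in Spon3F, 0.33 in Spon4F, -0.52 in Spon5F and -0.03 in Spon6F. The post-PHx tumors stayed between -0.18 and 0.11. In Spon1M it lay in an amplified region of 6.75 Mb (122 probes, mean log2 ratio 0.43), and in Spon5F in a deleted one of 49.6 Mb (802 probes, -0.49). The median of chromosome 12 was 0.35 in Spon1M, 0.36 in Spon4F, 0.27 in Spon2M and -0.31 in Spon5F. The remaining genes of this list, which numbered 7 in all, were not in a called region. Cyp7b1, an oxysterol hydroxylase of the alternative bile acid pathway, ranged from 0.04 to 0.34 after PHx and from -0.05 to 0.21 in the spontaneous tumors. Cyp27a1, which opens that pathway in mitochondria, ranged from -0.09 to 0.08 after PHx and from -0.33 in Spon1M to 0.28 in Spon2M. Cyp8b1, the sterol hydroxylase needed for cholic acid, has 1 probe, which ranged from 0.02 to 0.53 after PHx and from -0.12 to 0.65 in the spontaneous tumors.

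Among the genes of hormone and vitamin metabolism, Cyp24a1, which degrades the active form of vitamin D (2 probes, chromosome 2, 170175084 to 170185399), was at 0.76 in PHx4M and 0.57 in PHx3M, and between -0.14 (PHx5M) and 0.13 (PHx6F) in the other post-PHx tumors. The spontaneous tumors ranged from 0.02 in Spon4F to 0.31 in Spon2M, inside the range of the post-PHx ones. In PHx4M the region that held it reached from 142819528 to 181797594 (886 probes, mean log2 ratio 0.62). Just outside the filter stood PHx3M, where the probes within 1 Mb averaged 0.43 and the region called at a filter of 0.25 had a mean of 0.396. Cyp19a1, the aromatase that makes estrogens (chromosome 9), was at 0.71 in Spon1M and between -0.21 and 0.26 in the other spontaneous tumors, and after PHx it ranged from -0.05 to 0.18. In Spon1M, it lay in a region of 41 probes (mean log2 ratio 0.60), and the Cyp1a/11a cluster further along chromosome 9, at 0.65, in another of 59 probes (0.59). That cluster holds Cyp1a1 and Cyp1a2, targets of the aryl hydrocarbon receptor, at 0.76 and 0.66, and Cyp11a1, which opens steroid hormone synthesis, at 0.58. Without Spon1M, the amplified Cyp genes of the spontaneous tumors were 1, Cyp39a1, and the share of all genes was not computed.

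**Figure D3:**
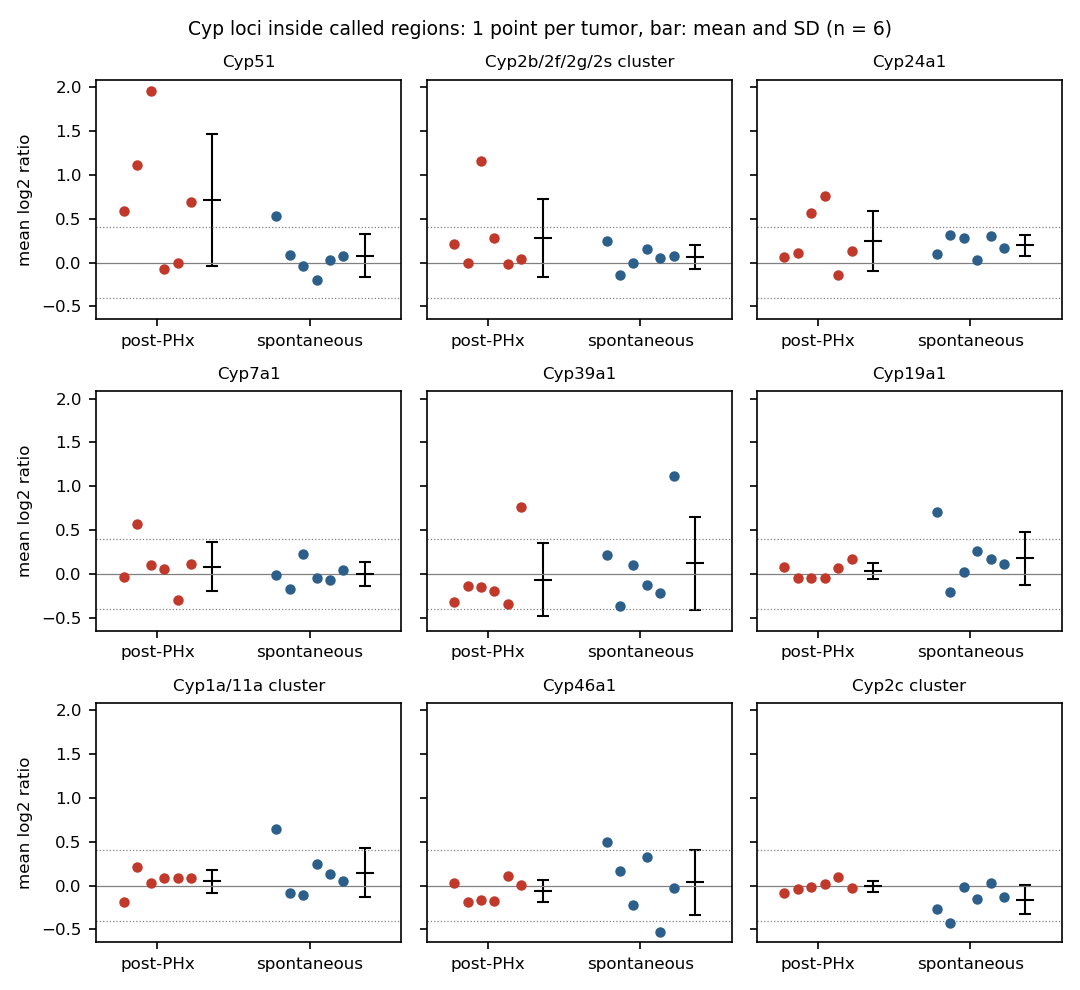
Mean log2 ratio (vertical axis) of 9 Cyp loci that lay in called regions, with 1 point per tumor in the order 1 to 6 within each group, the mean and SD of 6 tumors beside the points and dotted lines at 0.4 and -0.4. Values past 0.4 come from few tumors per panel, and for Cyp51 from 4 post-PHx tumors and Spon1M.

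Most deleted Cyp genes lay on chromosome 19 in Spon2M. In Spon2M the Cyp2c cluster (17 probes, chromosome 19, 39088713 to 40218756), whose enzymes oxidize fatty acids and drugs, was at -0.43, with its genes from -0.63 (Cyp2c55) to -0.25 (Cyp2c70). Cyp26a1, which degrades retinoic acid, was at -0.41, Cyp2c44 at -0.34 and the steroid hydroxylase Cyp17a1 at -0.20 in the same tumor. The median of chromosome 19 was -0.42 in Spon2M, -0.26 in Spon1M and -0.15 in Spon6F, and between -0.08 and 0.04 in the other tumors. The called regions of Spon2M had mean log2 ratios of -0.40, -0.40 and -0.41, at the filter of 0.4, so that these 10 genes were called by a narrow margin. With the arrays centred on the mode none of the 10 was called. Then 2 Cyp genes, Cyp27b1 and Cyp46a1, were still deleted in a spontaneous tumor (3.57%, against 8.93% of all genes). The clusters of chromosome 4 were also low in Spon2M, at -0.30 (Cyp2j) and -0.45 (Cyp4a/4b/4x), with a chromosome median of -0.38, and were called at a filter of 0.25 and after normexp background correction, but not in the main setting. Cyp27b1, which makes the active form of vitamin D, counted as deleted in Spon3F by its position in a region of 5 probes (mean log2 ratio -0.80), but its own probe was at -0.04. In Spon3F, 143 deleted regions were called, more than in any other tumor, and the lowest Cyp value of all, -2.93, came from the only probe of Cyp2d26 there, while the other 3 genes of the Cyp2d cluster were between -0.01 and 0.07.

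The Cyp locus with the highest value was Cyp51 in PHx1M, PHx2F and PHx3M, Cyp24a1 in PHx4M, Cyp11b2 in PHx5M (0.36) and Cyp39a1 in PHx6F and Spon6F. It was Cyp19a1 in Spon1M, Cyp8b1 in Spon2M, Spon3F (0.42) and Spon4F (0.41), and Cyp21a1 in Spon5F (0.34). The lowest locus was Cyp39a1 in PHx1M and PHx5M, Cyp20a1 in PHx2F (-0.42), Cyp46a1 in PHx3M (-0.16) and Spon5F, Cyp1b1 in PHx4M (-0.21), Spon2M (-0.70) and Spon4F (-0.41), Cyp17a1 in PHx6F (-0.33) and Spon6F (-0.66), Cyp26a1 in Spon1M (-0.37) and Cyp21a1 in Spon3F (-0.85). Cyp8b1, Cyp1b1, Cyp11b2, Cyp17a1 and Cyp26a1 each rest on 1 probe. By share of genes at or above 0.4, the Cyp genes stood highest in PHx3M, with 14.3%, against 6.02% of all genes.

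Most gains of Cyp loci were shared by at least 0.25 with the probes around them, and fewer of the low values were. Over 31 loci and 12 tumors, 30 of 372 locus means were at least 0.4 in size, 19 upward and 11 downward. The other probes within 1 Mb deviated in the same direction by at least 0.25 in 15 of the 19 high values and in 5 of the 11 low ones. By sign alone, they deviated in the same direction in 16 of the 19 high values and in 11 of the 11 low ones. Of the low values, 7 stood apart from their surroundings by at least 0.25, with differences from -0.67 (Cyp21a1 in Spon3F) to -0.34 (Cyp1b1 in Spon4F). Of these 7, 6 rest on 1 or 2 probes. Cyp17a1 in Spon6F, for example, was at -0.66 and its surroundings at -0.13. Of the high values, 6 stood above their surroundings by at least 0.25, and 5 of these 6 rest on 1 or 2 probes. Cyp39a1 in PHx6F, also high, differed from its surroundings by -0.33. The 3 high values whose surroundings were not above 0 were Cyp8b1 in PHx4M, Spon2M and Spon3F, where its single probe was at 0.53, 0.65 and 0.42 and its surroundings at -0.01, -0.11 and -0.16. The median distance of a locus from its surroundings was 0.08, and the median size of a locus mean was 0.10.

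**Figure D4:**
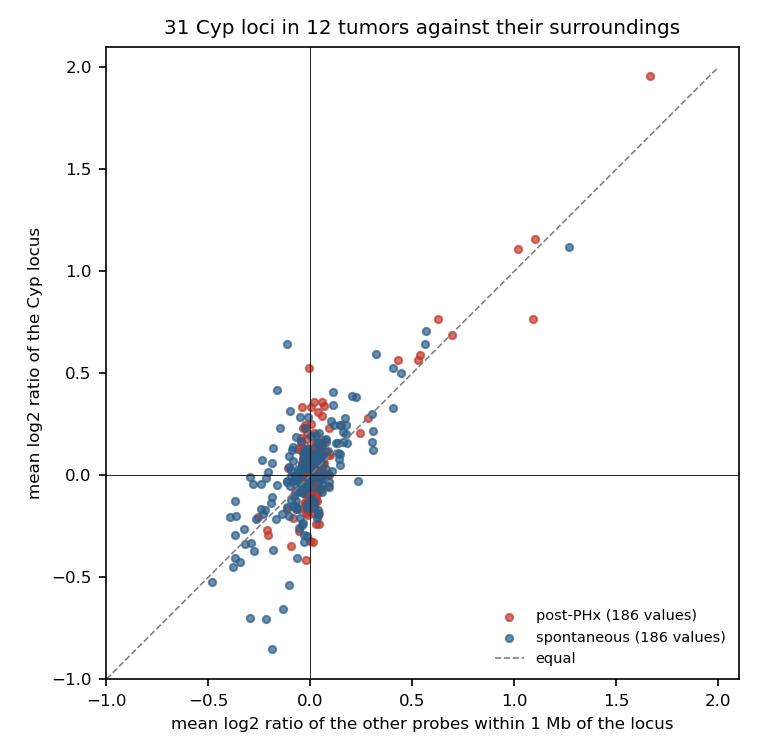
Mean log2 ratio of each Cyp locus (vertical axis) against that of the other probes within 1 Mb (horizontal axis), with 1 point per locus and tumor, 186 in each group, and equality dashed. Most loci with high values have high surroundings, Cyp8b1 being an exception. Of the values at least 0.4 in size, 7 low ones lie at least 0.25 below the line and 6 high ones at least 0.25 above it.

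The test of each gene minus its flanks asked whether a gene departed from its surroundings in the same direction over the 12 tumors. Of 56 Cyp genes, 10 lay above their flanks, against 13.7% of 19876 genes tested, and 5 below, against 10.6% (limma, adjusted p under 0.05). The share of Cyp genes, 17.9% above and 8.93% below, was thus near that of all genes. Without a dye swap, a lasting difference between the dyes at a probe gives the same result as a change in dose, and the 2 cannot be told apart in this test. The 10 were Cyp24a1, Cyp7b1, Cyp2j9, Cyp2s1, Cyp2b10, Cyp8b1, Cyp2d22, Cyp2d9, Cyp4f13 and Cyp2c70, by 0.09 (Cyp2s1) to 0.28 (Cyp8b1). The 5 were Cyp3a16, Cyp3a11, Cyp39a1, Cyp1b1 and Cyp26a1, by -0.17 (Cyp3a11) to -0.11 (Cyp3a16). Cyp39a1 minus its surroundings was -0.33 in PHx6F and -0.15 in Spon6F, the tumors where it was gained. After normexp background correction 5 of the 15 calls were lost (Cyp7b1, Cyp3a11, Cyp3a16, Cyp2s1 and Cyp2d9), and the difference of Cyp7b1 turned to -0.02. Of the 15, 7 held in all alternatives, whereas Cyp3a16 held in 7 of 18, Cyp2s1 in 7 of 19 and Cyp2b10 in 9 of 19. Cyp3a16 had no value in Spon5F, so its fit used 11 tumors.

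Each group was then tested against its own non-tumor liver, that is, against 0. In the post-PHx tumors, 0 of 56 Cyp genes passed (limma; 14, or 25%, at an unadjusted p under 0.05, against 19.4% of all genes), whereas 1.55% of 19928 genes rose and 1.06% fell. The lowest adjusted p of a Cyp gene was 0.0692, for Cyp7b1, with a mean of 0.20 and positive values in 6 of 6 tumors. In the spontaneous tumors, 1 Cyp gene rose, against 2.17% of all genes, and 2 fell, against 2.08%. Cyp2d22 rose by 0.19 (95% interval 0.09 to 0.28, adjusted p = 0.039, limma), with values from 0.06 to 0.30. After PHx its mean was 0.16, with values from 0.03 to 0.31, which did not pass. Cyp26a1 fell by 0.26 (-0.36 to -0.15, adjusted p = 0.0168, limma), with values from -0.41 to -0.13, and Cyp2c39 fell by 0.31 (-0.46 to -0.17, adjusted p = 0.0265, limma), with values from -0.58 to -0.05. The call of Cyp2d22 held in 7 of 16 alternatives, that of Cyp26a1 in 15 and that of Cyp2c39 in 13. All 3 genes rest on 1 probe. Cyp26a1 and Cyp2c39 were lowest in Spon2M and Spon1M, the tumors with the lowest chromosome 19 medians given above. In Spon6F they were at -0.19 and -0.25. In Spon4F, with a chromosome 19 median of -0.08, they were lower, at -0.26 and -0.35. Without a dye swap, a lasting dye difference at a probe cannot be told apart from a dose change in these tests either. Cyp2d22 and Cyp26a1 also departed from their flanks over all tumors of both groups, by 0.17 and -0.14. Without Spon1M, 0 Cyp genes passed, while 153 of all 19928 genes rose and 110 fell. Without Spon2M 1 Cyp gene passed (331 genes rose and 284 fell), and without Spon4F 1 did (179 and 147). Without Spon5F 5 did (1 rose and 4 fell), while 405 of all genes rose and 367 fell.

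The comparison of the groups addressed whether tumors after PHx differ from spontaneous ones in Cyp gene dose. No Cyp gene passed the threshold, as did 0 of 19928 genes (0%; limma), and 4 Cyp genes and 848 genes in all had an unadjusted p under 0.05. These 4 were Cyp2c39 (difference 0.37, 95% interval 0.17 to 0.58), Cyp2c55 (0.32, 0.05 to 0.59), Cyp2c44 (0.15, 0.02 to 0.28) and Cyp51, all higher after PHx and each with an adjusted p of 0.985. The median difference of the Cyp genes was 0.07, against 0.01 over all genes, and 43 of 56 were above 0. The share of all genes above 0 was not computed, and neighbouring genes are not independent. By locus the median was 0.04, with 22 of 31 above 0. With slide as a block 28 of 56 Cyp genes were above 0, but those differences come from slide 2 alone, with 2 tumors per group. The groups did not overlap for 1 of 55 Cyp genes measured in all tumors, Cyp2c44, against 0.193% of all genes. Its post-PHx values were -0.03 to 0.05 and its spontaneous values -0.34 to -0.04, and Spon1M, Spon2M and Spon6F, with the low chromosome 19, held the lowest 3.

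Ordered by the mean of the locus, the largest differences were those of Cyp51, Cyp17a1 (0.23), the chromosome 7 cluster (0.21), the Cyp2c cluster (0.15) and Cyp2c44 (0.15), higher after PHx. At the other end were Cyp39a1 (-0.19), Cyp19a1 (-0.15), Cyp46a1 (-0.10), the Cyp1a/11a cluster (-0.10) and Cyp3a13 (-0.03). The SD within a group was mostly as large: it was 0.45 after PHx for the chromosome 7 cluster and 0.53 among the spontaneous tumors for Cyp39a1. Within slide 2, 14 of 31 loci changed the sign of the difference, among them the chromosome 7 cluster (-0.05) and Cyp46a1 (0.33), while Cyp51 (0.29), Cyp17a1 (0.40) and Cyp39a1 (-0.24) kept theirs. With 2 tumors per group there, these are values with little weight.

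**Figure D5:**
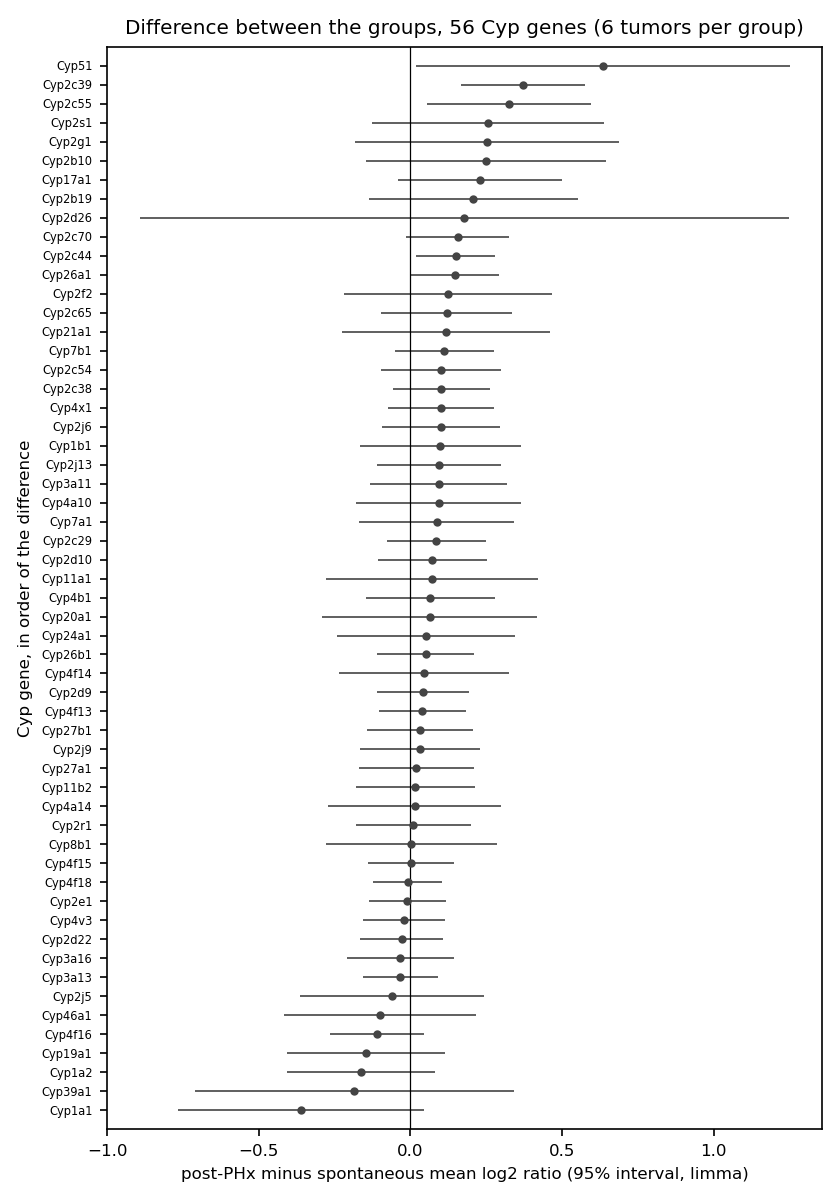
Difference between the mean log2 ratios of 6 post-PHx and 6 spontaneous tumors (horizontal axis) for 56 Cyp genes, with 95% intervals from limma, unadjusted. The interval lies above 0 for Cyp2c39, Cyp2c55, Cyp2c44 and Cyp51, and spans 0 for the other genes.

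By role, the 28 xenobiotic genes of the Cyp1, Cyp2 and Cyp3 families had a median group difference of 0.10, the 7 bile acid and sterol genes 0.02, the 10 fatty acid genes of the Cyp4 family 0.03 and the 5 steroid hormone genes 0.07, beside 0.01 for all genes. In called gains after PHx lay 5 of 28 xenobiotic genes, all in the chromosome 7 cluster, 3 of 7 bile acid and sterol genes (Cyp51, Cyp7a1 and Cyp39a1), 1 of 3 vitamin D genes and 0 of 10 fatty acid genes, beside 9.11% of all genes. In called gains of the spontaneous tumors lay 2 of 7 bile acid and sterol genes (Cyp39a1 and Cyp46a1), 2 of 5 steroid hormone genes and 2 of 28 xenobiotic genes, beside 8.41% of all genes. In called losses of the spontaneous tumors lay 8 of 28 xenobiotic genes, those of the Cyp2c family, beside 10.5% of all genes. So did 1 of 7 bile acid and sterol, 1 of 5 steroid hormone, 1 of 3 vitamin D and 1 of 2 retinoic acid genes. The Cyp2c genes were called in Spon2M alone, close to the filter. The vitamin D gene, Cyp27b1, had its own probe at -0.04 in Spon3F. The Cyp genes were not gathered near the chromosome starts: 3 of 56 (5.36%) began within the first 20 Mb, as did 10.6% of all genes. Of these 3, Cyp51 and Cyp7a1 were in called gains and Cyp7b1 was not. The share in called gains among all genes near the starts was not computed, so this count has no background beside it.

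Other genes that serve the Cyp enzymes were examined for comparison. Of 7 redox partners such as Por, which passes electrons to microsomal Cyp enzymes, 6 were on the array, and none lay in a called region or passed a test. Of 11 regulators, 10 were on the array, and 2 lay in called regions, all of them gains. Beside both sets, 9.11% of all genes lay in a called gain in at least 1 post-PHx tumor. In the spontaneous tumors 8.41% lay in a called gain and 10.5% in a called loss. Hnf4a, a master regulator of hepatocyte genes with 1 probe on chromosome 2, was at 0.77 in PHx4M and 0.69 in Spon1M, where it was called, and at 0.89 in PHx3M, where it was not. Ahr, the receptor that induces Cyp1a genes, was at 0.82 in Spon1M, and in the other tumors between -0.19 and 0.37. In Spon1M, Ahr and the Cyp1a genes were therefore in called gains on different chromosomes. None of the 10 regulators passed a test in either group or between groups (limma, adjusted over all genes).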

How the data were processed

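DNA of 12 tumors and matched non-tumor livers was compared on 12 two-colour Agilent arrays. The authors deposited, for each spot, signal intensities of both channels and the log10 ratio of red (tumor) over green with its error, written by Feature Extraction 10.5.1.1 after background subtraction and dye scaling. At least 99.7% of ratios equalled the deposited processed intensities within 0.001. Ratios were put on the log2 scale, outlier spots dropped, probes averaged and arrays centred on the autosomal median, with probe positions on NCBI36 (mm8) per the file headers. Gene means were tested with limma 3.58.1 in R 4.3.3 (lmFit, eBayes, Benjamini-Hochberg over all autosomal genes with at least 3 tumors per group). Flanks were other probes within 1 Mb (at least 3). Regions were called with deposited errors as weights, in the manner of ADM-2, and split into pieces where these differed. A search without pieces was run first; the split was chosen after seeing those values. Both procedures were tested on simulated data.

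The members and gene lists were chosen with earlier results of these data known. Named were Cyp genes in called regions of at least 5 probes or past a test, the 5 loci at each end of the group difference, the bile acid and sterol genes, and each tumor's highest and lowest locus; Hnf4a, Ahr, Cyp2d26 and the Cyp2j and Cyp4a/4b/4x clusters were named after values were seen. Each sample is 1 tumor; the labels do not name the mice, and a legend in the study's supplement speaks of as many mice as tumors in each group. The number of tumors limits precision. Alternatives were normexp correction (offset 50), other centring, probe filters, models with slide, with sex or with tumor number, other flanks, score thresholds, filters, weights and errors, and each tumor left out.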

Additional observations from a re-analysis of the deposited data

Results flagged for a closer look

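Of 62 sets of 6 tumors (31 Cyp loci in each group), 5 held a tumor whose gap to the nearest other tumor was large for the range of the group, and about 1 in 20 such sets does so by chance. In the post-PHx tumors these were the chromosome 7 cluster in PHx3M (1.16, against -0.02 to 0.28 in the other 5), Cyp39a1 in PHx6F (0.76, against -0.34 to -0.13) and Cyp20a1 in PHx2F (-0.42, against 0.03 to 0.18). The 2 probes of Cyp20a1 were at -0.92 and 0.09 in PHx2F, and its surroundings at -0.02. In the spontaneous tumors they were the Cyp2d cluster in Spon3F (-0.70, against -0.01 to 0.25), through the probe of Cyp2d26, and Cyp3a13 in Spon2M (0.20, against -0.06 to -0.00). Their causes were not tested.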

How the results depend on the processing

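For the group comparison, 0 Cyp genes passed in each alternative, with tumor number as a replicate block (0), slide as a block (0), within slide 2 (0) and each tumor left out (0 to 0) among them. Slide as a block gave the same difference at each locus as slide 2 alone, so these 2 are not separate checks of the differences. The tumor numbers do not pair the tumors: the deviations of tumors with the same number correlated from -0.04 to 0.45, and 1 of 6 correlated best with its own number. For PHx6F and Spon6F, the 0.45 here was computed in another way than the 0.52 given above. After normexp correction, 15 Cyp genes passed in the post-PHx tumors (8 higher and 7 lower; 26.8%, against 23.9% of all genes), 13 in the spontaneous ones (5 higher and 8 lower; 23.2%, against 26.5%) and 32 against the flanks (16 higher and 16 lower, in place of 10 and 5; 57.1%, against 50.9%), and 21 were deleted in the spontaneous tumors (37.5%, against 14.2%). With at least 2 probes per gene, 0 of 37 Cyp genes passed in the spontaneous tumors, where 165 of 10897 genes rose and 186 fell. Against the flanks 8 of 37 passed (7 higher and 1 lower), beside 1414 higher and 1137 lower of 10851 genes. Leaving out a tumor gave 0 to 1 Cyp genes for the post-PHx tumors (1 without Spon2M) and 0 to 5 for the spontaneous ones (0 without Spon1M, 5 without Spon5F). Over all 19928 genes, 495 rose and 377 fell after PHx without Spon2M. In the spontaneous tumors 153 rose and 110 fell without Spon1M, and 405 rose and 367 fell without Spon5F. Leaving out a tumor also gave 4 to 9 Cyp genes amplified after PHx (4 without PHx3M). It gave 1 to 6 amplified in spontaneous tumors (1 without Spon1M) and 2 to 12 deleted (2 without Spon2M). The shares of all genes in regions with a tumor left out were not computed. At a filter of 0.6, 2 Cyp genes were amplified (3.57%, against 2.91% of all genes) and 1 deleted (1.79%, against 1.02%) in the spontaneous tumors. At 0.25, 23 were deleted there (41.1%, against 25.8%). Deleted Cyp genes of the spontaneous tumors numbered 4 at a score threshold of 5 (7.14%, against 10.3% of all genes). They numbered 2 with centring on the mode (3.57%, against 8.93%) and 2 with outermost regions only (3.57%, against 7.48%). Outermost regions only also left 1 amplified gene (1.79%, against 6.30%). These shares lay below those of all genes, unlike in the main setting. Outermost regions only was added after seeing the data, as were scaled probe errors, which changed no count by over 1.5 times. The causes were not tested. Locus differences moved beyond the spread within groups in 9 of 31 loci within slide 2 and 1 of 31 after normexp. With genes joined under 0.5 Mb or 2 Mb there were 32 and 29 loci. The dimmer arrays of slide 1, all post-PHx, and small numbers of probes per gene limit single genes more than clusters. On slide 2 the median Cy3 signal of the Cyp probes over background was 16.3 in PHx5M, 17.4 in PHx6F, 18.0 in Spon5F and 14.3 in Spon6F.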
